A study of Mus musculus with 8 samples.

Results

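The solute carrier (SLC) genes of CD11c+ splenocytes from lupus-prone and control mice are described here. Members were the genes of the deposited count table whose symbol starts with Slc and a family number. The iron, heme and anion carriers Slc40a1, Slc11a1, Slc48a1 and Slc4a1 were left out by name, as were 6 genes inside chosen windows of chromosomes 1, 4 and 7, among them the glutamine carrier Slc1a5. Of the 262 genes of the table whose symbol fits, 194 had a mean raw count of at least 50 over the 8 mice and were kept, out of 13786 genes in all, and 58 fell below that count. The mean is taken over both strains, and 189 of the members reached it in each strain, whereas 5 reached it in 1 strain, among them Slc5a11, Slc46a1 and Slc25a43 in C57BL/6 and Slc27a2 in B6.SLE123. Just inside the limit stood Slc27a2, with a mean count of 55.8, and Slc25a27, with 57. Just outside it were Slc52a3, with 47.1, and Slc6a8, with 46.2.

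RNA was sequenced from 4 C57BL/6 mice and 4 B6.SLE123 mice, all female, untreated and 7 weeks old. The labels state only separate samples, and each sample is taken here as a single mouse. C57BL/6 is the control strain. B6.SLE123 is a congenic strain on the C57BL/6 background that carries the Sle1, Sle2 and Sle3 lupus susceptibility intervals of the NZM line, so any other gene inside those intervals also differs in origin, and the strain's effect cannot be assigned to a single locus. The labels call the cells dendritic cells. The study's methods describe them as CD11c-positive splenocytes, a selection that also retains other spleen cells bearing CD11c. In these bulk libraries, fewer cells of a type and less RNA per cell cannot be told apart.

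The libraries held between 25563070 and 37367094 counts assigned to genes, with medians of 28308686 in C57BL/6 and 32662412 in B6.SLE123. Itgax, which encodes CD11c, was measured at 1329 ± 77.9 CPM (counts scaled to the library total, SD, n = 4) in C57BL/6 and 1543 ± 93.4 (SD, n = 4) in B6.SLE123. Across all 13786 genes, 53.4% passed an adjusted p of 0.05 between the strains, 26.7% higher and 26.6% lower in B6.SLE123. Values more than 2-fold apart and past that threshold were found for 11.1% of genes, 2.76% higher and 8.29% lower, and for 48.9% of genes the 4 values of one strain did not overlap the 4 of the other. These shares are the background for the counts of carriers that follow. Adjusted p-values are Benjamini-Hochberg values over all 13786 genes from edgeR's quasi-likelihood test, and log2 fold changes are B6.SLE123 over C57BL/6.

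Solute carriers are membrane proteins that move amino acids, sugars, lipids, nucleosides, vitamins, metals and inorganic ions across the cell membrane or the membranes of mitochondria, lysosomes and the Golgi apparatus. They work by exchange, by cotransport with sodium or protons, or by facilitated diffusion, without direct use of ATP. In dendritic cells and macrophages, carriers supply arginine for nitric oxide synthesis, deliver leucine for growth signalling, and export peptides and nucleosides from the lysosome, where endosomal Toll-like receptors read nucleic acids.

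Carriers that were lower in B6.SLE123 outnumbered those that were higher. Of the 194 members, 120 (61.9%) passed the threshold, 83 of them lower (42.8%) and 37 higher (19.1%), and 74 did not pass. Among all genes with a mean count of at least 50, the limit the members had to meet, 57.9% passed, 27.6% lower and 30.3% higher. More than 2-fold lower were 26 members (13.4%), among them the arginine carrier Slc7a2, the glutamate carrier Slc1a3 and the folate carrier Slc46a1, whereas a single member, the Golgi sodium/proton exchanger Slc9a7, was more than 2-fold higher. The strains did not overlap for 110 members (56.7%), against 53.7% of genes with a mean count of at least 50. The median log2 fold change was -0.11 over the members and -0.002 over all genes tested, and it ran from -4.54 to 1.05 among members. With the 189 members that met the count limit in each strain, 79 were lower, 37 higher and 23 more than 2-fold lower.

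Together the members took 1.15% to 1.17% of all counts in the C57BL/6 mice and 0.988% to 1.05% in the B6.SLE123 mice. Their summed level was 11583 ± 93.0 CPM (SD, n = 4) in C57BL/6 and 10203 ± 273 CPM (SD, n = 4) in B6.SLE123, and the ranges of 11522 to 11719 and of 9906 to 10556 did not overlap. Grouped by what they carry, mostly assigned by family, the classes differed in balance, as the plot of fold changes by role class shows. Amino acid, sugar, monocarboxylate and nucleoside carriers had medians between -0.47 and -0.31, whereas the 38 mitochondrial carriers had a median of -0.001. The threshold was passed by 75.9% of amino acid, 71.4% of sugar, 73.7% of monocarboxylate and 83.3% of nucleoside carriers. Among all genes with a mean count of at least 50 it was passed by 57.9%. More than 2-fold lower were 34.5% of amino acid, 21.4% of sugar, 26.3% of monocarboxylate and 16.7% of nucleoside carriers, against 6.12% of those genes.

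**Figure D1:**
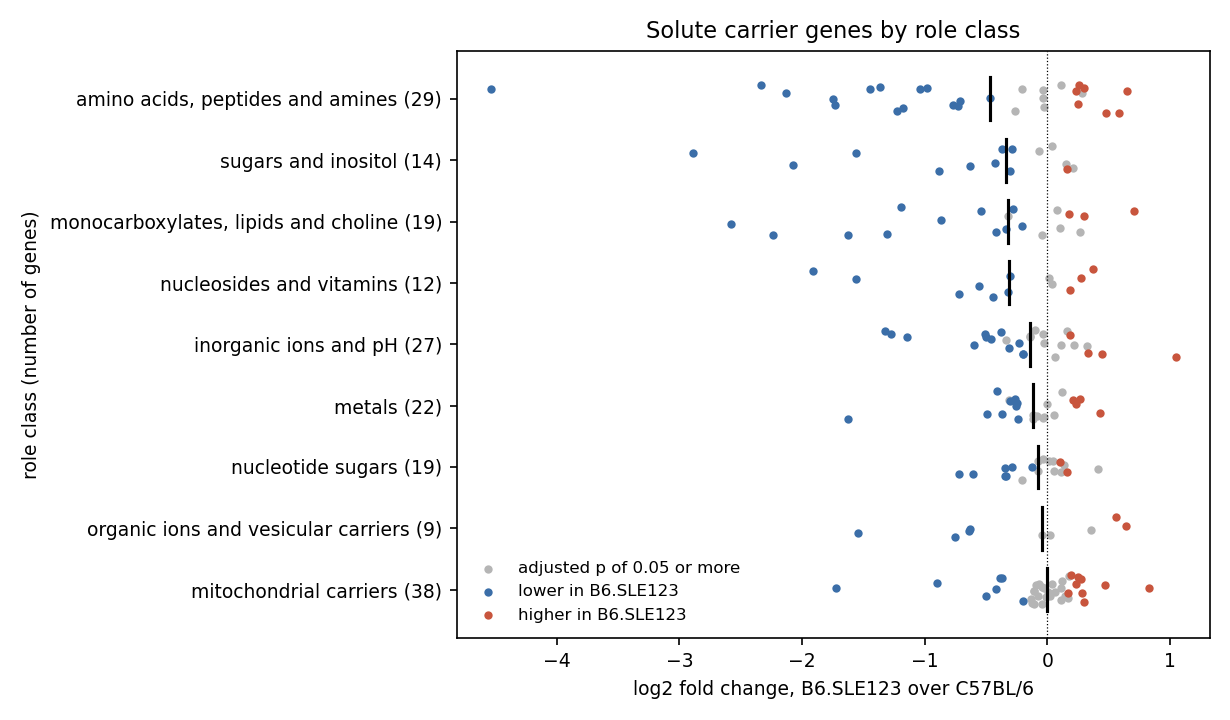
Log2 fold change (B6.SLE123 over C57BL/6, horizontal axis) of each solute carrier gene, grouped by role class on the vertical axis with the number of genes in parentheses. Each point is a gene, blue where lower and red where higher in B6.SLE123 at an adjusted p below 0.05, grey otherwise, and the black bar is the class median. Blue points reach down to -4.54 (Slc7a2), while only Slc9a7 lies beyond 1 on the right.

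Markers of other spleen cells moved between the strains too. All 8 red pulp macrophage markers were lower in B6.SLE123, their median log2 fold change was -2.47, and their summed level was 8434 to 10716 CPM in C57BL/6 and 1250 to 2408 CPM in B6.SLE123, with no marker at 0. Of the 26 carriers that were more than 2-fold lower, 21 had their highest C57BL/6 value in replicate 3 and 18 their highest B6.SLE123 value in replicate 4. These were the mice with the highest red pulp sum in each strain. The mouse with the lowest sum, replicate 2 in each strain, held the lowest value of 15 of them in C57BL/6 and 16 in B6.SLE123. All these genes were read in the same mice, so the counts are not independent observations, and the share over all genes was not computed. Lower in B6.SLE123 were also 5 of 6 B cell markers (median -0.58), 4 of 5 measured erythroid markers (-2.55), 3 of 5 neutrophil markers (-0.63), 2 of 5 monocyte markers (-0.29) and 2 of 6 type 2 conventional dendritic cell markers (-0.29). Higher were 5 of 6 type 1 conventional dendritic cell markers (0.85), 5 of 5 general dendritic cell markers (0.28) and 6 of 6 proliferation genes (1.01). Plasma cell markers were split, with 2 higher and 2 lower of 5, T cell markers with 1 each of 5, and plasmacytoid dendritic cell markers with 1 higher and 2 lower of 6. The 5 NK cell markers had log2 fold changes between -0.56 and -0.06 that did not pass. The part of these cells in the carrier differences was not tested.

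Amino acid, peptide and amine carriers held the most large differences. Of 29 measured, 15 were lower and 7 higher in B6.SLE123, 10 were more than 2-fold lower, and the median log2 fold change was -0.47. Carriers of the same kind of substrate lay on opposite sides, as the plot of amino acid and peptide carriers shows.

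**Figure D2:**
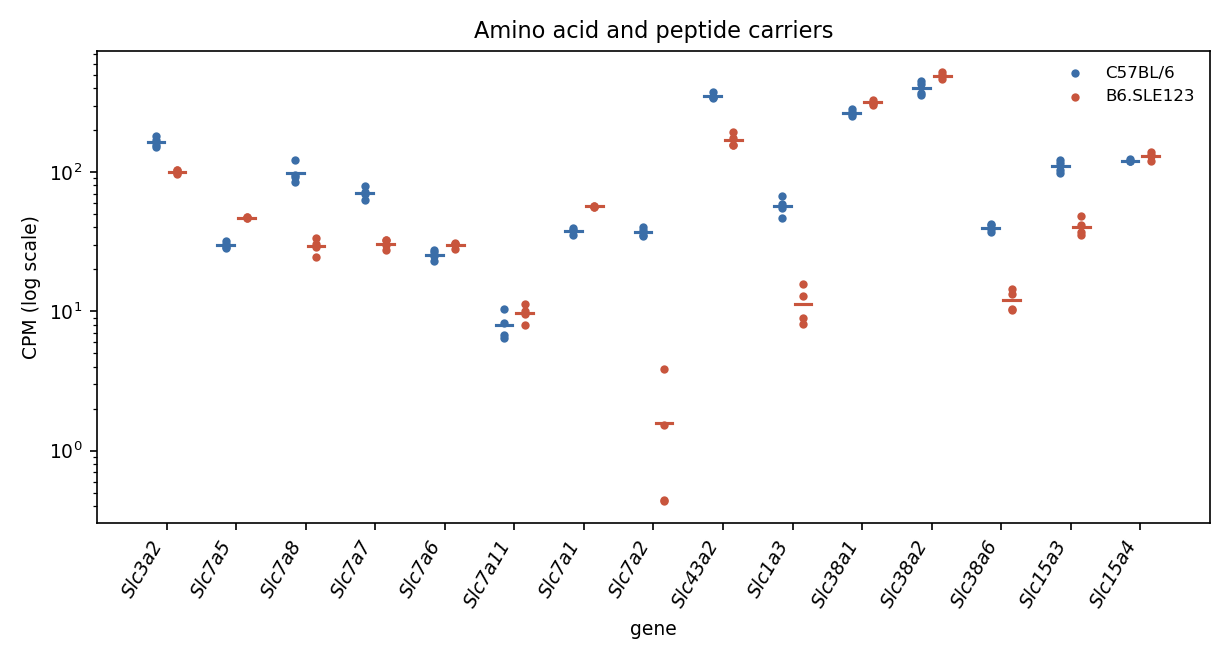
CPM on a log scale (vertical axis) of 15 amino acid and peptide carriers (horizontal axis) in 4 C57BL/6 mice (blue) and 4 B6.SLE123 mice (red). Points are mice and bars are means. Slc7a2, Slc1a3, Slc7a8 and Slc38a6 are lower in every B6.SLE123 mouse, whereas Slc7a1 and Slc7a5 are higher in every one.

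Slc7a2 and Slc7a1 encode CAT2 and CAT1, carriers of arginine and other cationic amino acids. Slc7a2 (mm10, chr8:40862396-40922308) was measured at 38.1, 34.5, 40.6 and 35.2 CPM in the C57BL/6 mice and at 3.86, 1.53, 0.444 and 0.433 CPM in the B6.SLE123 mice. The B6.SLE123 mice differed among themselves, with 122 counts in replicate 1 and 15 and 11 counts in replicates 3 and 4, yet all lay far below the C57BL/6 mice. The log2 fold change was -4.54 ± 0.40 (SE, edgeR adjusted p = 4.52e-06), and -5.44 without B6.SLE123 replicate 1. Slc7a1 (chr5:148327410-148399904) went the other way, from 35.1 to 39.9 CPM in C57BL/6 to 55.9 to 57.4 CPM in B6.SLE123, without overlap (log2 fold change 0.59 ± 0.05 SE, edgeR adjusted p = 2.45e-06). The ratio of Slc7a1 to Slc7a2 counts was thus 0.941 to 1.10 in C57BL/6 and 14.9 to 133 in B6.SLE123. This pair and the other gene pairs given as ratios were chosen after their values were seen and are descriptions.

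Leucine and other large neutral amino acids enter through Slc7a5 (LAT1) or Slc7a8 (LAT2), each of which works only when joined to the heavy chain CD98, encoded by Slc3a2. Slc7a5 (chr8:121881150-121907694) read 28.5, 31.8, 30.3 and 29 CPM in C57BL/6 and 46.9, 47.2, 46.7 and 47.2 CPM in B6.SLE123. The B6.SLE123 mice lay close to each other and all above the C57BL/6 mice (log2 fold change 0.65 ± 0.05 SE, edgeR adjusted p = 1.25e-06). Slc7a8 (chr14:54722209-54781946) was at 84.8, 92.7, 121 and 95.1 CPM in C57BL/6 and at 28.8, 30.6, 24.5 and 33.9 CPM in B6.SLE123. All 4 B6.SLE123 values lay below the lowest C57BL/6 value (-1.74 ± 0.12, edgeR adjusted p = 1.00e-06). The shared heavy chain gene Slc3a2 (chr19:8706882-8723369) fell as well, from 165 ± 12.9 to 101 ± 3.32 CPM (SD, n = 4 each, -0.71 ± 0.06 SE, edgeR adjusted p = 2.57e-06). The ratio of Slc7a5 to Slc3a2 counts was 0.168 to 0.209 in C57BL/6 and 0.450 to 0.487 in B6.SLE123.

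Of the other partners of CD98, Slc7a7 (y+LAT1), which exports arginine in exchange for neutral amino acids, was lower, at 62.8 to 79.3 CPM in C57BL/6 and 27.4 to 32.4 CPM in B6.SLE123 (log2 fold change -1.22 ± 0.08 SE, edgeR adjusted p = 6.74e-07). Slc7a6 (y+LAT2), which has the same exchange activity and was picked here after its values were seen, was higher, at 23.1 to 27.7 and 27.9 to 31.1 CPM (0.23 ± 0.06, edgeR adjusted p = 0.0105). The 2 genes therefore moved in opposite directions without overlap between strains, although the Slc7a6 values nearly touched. The cystine/glutamate exchanger Slc7a11 (xCT) read 6.40 to 10.4 CPM in C57BL/6 and 7.93 to 11.4 CPM in B6.SLE123, which did not pass (0.29 ± 0.16, edgeR adjusted p = 0.148), and it passed without C57BL/6 replicate 2 (0.44, edgeR adjusted p = 0.0235).

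Slc43a2 (LAT4), a facilitative carrier of branched-chain amino acids that needs no heavy chain, was lower by a factor of 2.06. It read 337, 347, 372 and 346 CPM in C57BL/6 and 157, 155, 176 and 194 CPM in B6.SLE123, with no overlap (log2 fold change -1.04 ± 0.07 SE, edgeR adjusted p = 9.23e-07). The sodium-coupled neutral amino acid carriers were split. Slc38a6 (SNAT6; chr12:73286779-73354049) was at 42.6, 38.7, 41.5 and 37.1 CPM in C57BL/6 and at 10.2, 10.5, 13.2 and 14.6 CPM in B6.SLE123, so that no B6.SLE123 mouse reached the lowest C57BL/6 mouse (-1.73 ± 0.11, edgeR adjusted p = 6.07e-07). Slc38a2 (SNAT2), a glutamine and alanine carrier that amino acid starvation is known to raise, was higher in B6.SLE123, at 462 to 520 CPM against 356 to 446 CPM (0.30 ± 0.07, edgeR adjusted p = 0.0057). Its paralog Slc38a1 (SNAT1), named after its values were seen, was at 266 ± 12.5 and 316 ± 10.5 CPM (SD, n = 4, 0.25 ± 0.05 SE, edgeR adjusted p = 0.000881).

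Carriers of the transmitters glutamate and GABA were also measurable. Slc1a3 (GLAST; chr15:8634124-8710764), a sodium-coupled glutamate importer, read 55.5, 46.9, 67.2 and 58.6 CPM in C57BL/6 and 8.92, 8.06, 15.6 and 12.9 CPM in B6.SLE123. The strains did not overlap (log2 fold change -2.33 ± 0.19 SE, edgeR adjusted p = 2.59e-06). Slc6a13 (GAT2), a carrier of GABA and taurine, was higher, at 8.48 to 10.4 CPM in C57BL/6 and 11.2 to 14.3 CPM in B6.SLE123 (0.48 ± 0.10, edgeR adjusted p = 0.00154).

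The lysosomal peptide and histidine carriers Slc15a3 and Slc15a4 parted as well. Slc15a4 is needed for type I interferon responses through endosomal Toll-like receptors. Slc15a3 (chr19:10839727-10859362) read 103, 98.2, 122 and 117 CPM in C57BL/6 and 36.9, 35, 41.4 and 48.7 CPM in B6.SLE123, without overlap (log2 fold change -1.44 ± 0.10 SE, edgeR adjusted p = 1.30e-06). Slc15a4 (chr5:127595664-127632897) read 119, 119, 120 and 124 CPM in C57BL/6 and 132, 121, 130 and 140 CPM in B6.SLE123. B6.SLE123 replicate 2 fell within the C57BL/6 range, and the difference did not pass (0.12 ± 0.05, edgeR adjusted p = 0.064), although it did without that mouse (0.14, edgeR adjusted p = 0.022). The cell surface peptide importer Slc15a2 (PEPT2), named after its values were seen, read 25.5 to 31 CPM in C57BL/6, and in B6.SLE123 7.18, 6.26 and 8.79 CPM in replicates 1 to 3 but 22.6 CPM in replicate 4, just below the C57BL/6 range (-1.37 ± 0.33, edgeR adjusted p = 0.00466). The ratio of Slc15a4 to Slc15a3 counts was 0.981 to 1.21 in C57BL/6 and 2.88 to 3.58 in B6.SLE123.

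Reference promoter letters are shown for 3 of these genes because a motif bearing on amino acid supply or on myeloid transcription was found in them. The window searched was the 250 bases before each RefSeq gene start (GRCm38.p6), on both strands. It was held for 153 of the 194 members and 27025 genes in all. A gene with more than 1 start was counted once. The amino acid response element core TGATGNAA, bound by ATF4, was found in 3.91% of all genes with a window. It was found in 6 of 153 such members (3.92%), which were Slc26a10, Slc49a4, Slc50a1, Slc7a11, Slc7a7 and Slc9a9. The PU.1 core GAGGAAGT was found in 2.79% of all genes with a window and in 6 of 153 such members (3.92%). These were Slc12a4, Slc22a15, Slc22a18, Slc31a1, Slc35b2 and Slc49a4. Capitals mark the motif, read 5′ to 3′ on the strand of the gene, which is the minus strand for each, and where the motif lies on the opposite strand its reverse complement is in capitals.
Slc7a7, chr14:54418058-54418105: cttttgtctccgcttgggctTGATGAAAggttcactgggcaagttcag
Slc7a11, chr3:50443633-50443699: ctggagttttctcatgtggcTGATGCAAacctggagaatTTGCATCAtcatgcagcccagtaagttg
Slc22a15, chr3:101924459-101924506: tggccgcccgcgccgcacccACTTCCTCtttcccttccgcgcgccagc
Slc7a7, with 1 copy in this stretch and another copy 243 bases before a different RefSeq start of the gene, was lower in B6.SLE123, and Slc7a11, with a copy on each strand, did not pass the threshold. Of the 26 members more than 2-fold lower, 20 had a window, of which 1 (Slc7a7) held the amino acid response element core and 0 the PU.1 core. Of the 37 higher members, 32 had a window, of which 0 held the former and 3 (Slc22a15, Slc22a18 and Slc31a1) the latter. A match of letters is a description and not evidence of binding.

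Sugar and inositol carriers had the largest relative drop in summed level of the 9 role classes plotted, with a log2 difference of -0.79. Of 14 measured, 9 were lower and 1 higher in B6.SLE123, 3 were more than 2-fold lower, and the median log2 fold change was -0.34. Their sum was 693 to 752 CPM in C57BL/6 and 378 to 461 CPM in B6.SLE123. Slc45a3 had the largest share of that gap. This member of the sugar/proton cotransporter family (chr1:131962967-131982969) read 180, 160, 211 and 197 CPM in C57BL/6 and 20.9, 11.9, 35.1 and 33.9 CPM in B6.SLE123. No value of one strain came near the other (-2.89 ± 0.27 SE, edgeR adjusted p = 7.81e-06).

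Slc37a2, a sugar phosphate/phosphate exchanger of the endoplasmic reticulum that is abundant in macrophages, was at 109, 105, 125 and 107 CPM in C57BL/6 and at 34.4, 34.6, 36.8 and 45.4 CPM in B6.SLE123. All 4 B6.SLE123 values lay far below those of C57BL/6 (log2 fold change -1.56 ± 0.09 SE, edgeR adjusted p = 4.59e-07). The sodium-coupled inositol importer Slc5a11 (SMIT2), counted past the limit only in C57BL/6, was at 3.72 to 4.73 CPM there and 0.618 to 1.26 CPM in B6.SLE123 (-2.08 ± 0.20, edgeR adjusted p = 8.53e-06). Neither of the main glucose importers passed the threshold. Slc2a1 (GLUT1) read 18.5 ± 1.05 and 21.4 ± 2.77 CPM (SD, n = 4, 0.21 ± 0.09 SE, edgeR adjusted p = 0.0674, and 0.026 without B6.SLE123 replicate 1), and Slc2a3 (GLUT3), the more abundant per exon length, read 110 ± 7.92 and 105 ± 13.7 CPM (SD, n = 4, -0.07 ± 0.09 SE, edgeR adjusted p = 0.531). The lysosomal glucose transporter family member Slc2a6 was lower, at 33.5 to 41.1 CPM in C57BL/6 and 26 to 33.3 CPM in B6.SLE123 (-0.29 ± 0.08, edgeR adjusted p = 0.0143).

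**Figure D3:**
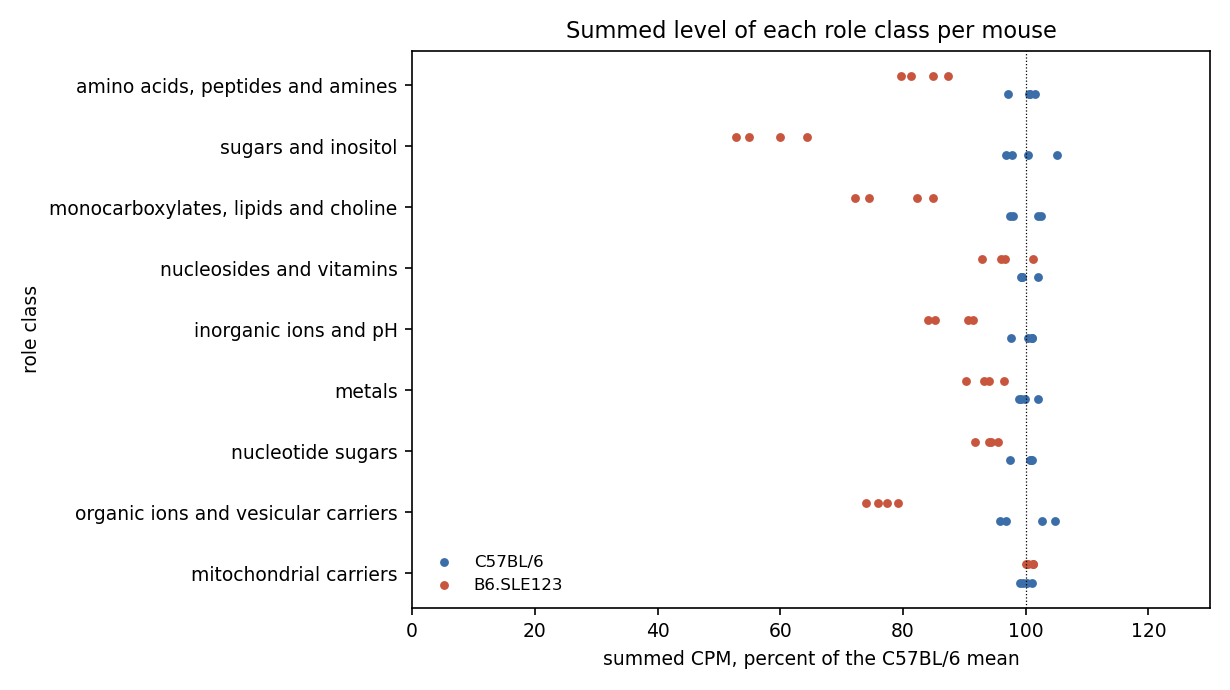
Summed CPM of each role class in each mouse, as percent of the C57BL/6 mean (horizontal axis), for 9 role classes (vertical axis). Blue points are the 4 C57BL/6 mice and red points the 4 B6.SLE123 mice, and the dotted line marks 100. Sugar and inositol carriers lie farthest to the left in B6.SLE123, and mitochondrial carriers of both strains lie together.

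Monocarboxylate, lipid and choline carriers were mostly lower. Of 19 measured, 11 were lower and 3 higher in B6.SLE123, 5 were more than 2-fold lower, and the median log2 fold change was -0.32. Slc16a9 (MCT9), which carries carnitine, read 60.5, 53.9, 68.3 and 59.6 CPM in C57BL/6 and 8.04, 6.05, 12.1 and 15 CPM in B6.SLE123 (chr10:70245100-70285968). The highest B6.SLE123 value was below the lowest C57BL/6 value (-2.58 ± 0.21 SE, edgeR adjusted p = 3.38e-06). Slc16a10 (TAT1; chr10:40033532-40142258), the aromatic amino acid carrier of the same family, was at 104, 89.98, 127 and 112 CPM in C57BL/6 and at 22.7, 15.5, 26.7 and 27.8 CPM in B6.SLE123. It too was separated between strains (-2.23 ± 0.16, edgeR adjusted p = 1.54e-06). Slc16a10 was counted in this class by its family, not by its substrate.

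The lactate and pyruvate carriers of this family differed among themselves. Slc16a7 (MCT2), named after its values were seen, was more than 2-fold lower, at 31.6 ± 1.99 CPM in C57BL/6 and 12.8 ± 2.54 CPM in B6.SLE123 (SD, n = 4, log2 fold change -1.31 ± 0.12 SE, edgeR adjusted p = 4.96e-06), with no overlap. Slc16a1 (MCT1), which imports and exports lactate and pyruvate, was at 5.34 to 6.77 CPM in C57BL/6 and 3.60 to 5.70 CPM in B6.SLE123, with B6.SLE123 replicate 1 inside the C57BL/6 range (log2 fold change -0.42 ± 0.15 SE, edgeR adjusted p = 0.0386). It lost that call in 6 of the 8 fits that each left out 1 mouse, without C57BL/6 replicate 2, 3 or 4 or B6.SLE123 replicate 2, 3 or 4, with adjusted p between 0.0542 and 0.116. Slc16a3 (MCT4), a lactate exporter that glycolytic cells raise, read 13.4 to 14.4 and 12.2 to 17.9 CPM (0.08 ± 0.11, edgeR adjusted p = 0.576), with a log2 fold change of -0.04 without B6.SLE123 replicate 1. The choline importer Slc44a1 (CTL1; chr4:53440413-53622478) rose, from 77.5, 83.5, 76.4 and 81.6 CPM in C57BL/6 to 132, 121, 128 and 142 CPM in B6.SLE123, with no overlap (0.71 ± 0.06, edgeR adjusted p = 2.15e-06). Slc27a2, a fatty acid carrier and acyl-CoA ligase, had 132 counts in B6.SLE123 replicate 3 and 37 to 59 in the other 7 mice, and its log2 fold change turned from 0.27 (edgeR adjusted p = 0.571) to -0.31 without that mouse.

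Among the inorganic ion and pH carriers stood the largest rise. Of 27 measured, 12 were lower and 4 higher in B6.SLE123. The 59.3% that passed lay near the 57.9% of all genes with a mean count of at least 50. In this class 3 were more than 2-fold lower and 1 more than 2-fold higher, and the median log2 fold change was -0.14. Slc9a7 (NHE7; chrX:20105754-20291807), a sodium/proton exchanger of the trans-Golgi network and endosomes, read 28.4, 27.8, 24.9 and 24.4 CPM in C57BL/6 and 54, 55.4, 55 and 53.1 CPM in B6.SLE123. The 4 B6.SLE123 values lay within a narrow band near 2.07 times the C57BL/6 level (1.05 ± 0.06 SE, edgeR adjusted p = 3.46e-07). The 3 members of the class that were more than 2-fold lower all belonged to the SLC12 family of chloride cotransporters. Slc12a5 (KCC2), a potassium/chloride exporter best known from neurons, was at 6.04 to 9.01 CPM in C57BL/6 and 2.25 to 3.94 CPM in B6.SLE123 (-1.33 ± 0.19, edgeR adjusted p = 0.000136). The other two, Slc12a7 (KCC4) and Slc12a2 (NKCC1), the latter an importer of sodium, potassium and chloride, are named after their values were seen. Slc12a7 read 109 ± 14 and 44.9 ± 3.97 CPM (SD, n = 4, -1.27 ± 0.09 SE, edgeR adjusted p = 1.42e-06). Slc12a2 read 383 ± 9.27 and 174 ± 36.3 CPM (SD, n = 4, -1.14 ± 0.11 SE, edgeR adjusted p = 1.16e-05).

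Nucleoside and vitamin carriers were lower in 7 of 12 and higher in 3, with 2 more than 2-fold lower and a median log2 fold change of -0.31. The proton-coupled folate carrier Slc46a1 was at 4.73, 4.03, 5.09 and 4.4 CPM in C57BL/6 and at 0.886, 0.968, 1.36 and 1.69 CPM in B6.SLE123. It met the count limit only in C57BL/6, and the strains did not overlap (-1.91 ± 0.19 SE, edgeR adjusted p = 1.41e-05). Slc28a2, a sodium-coupled purine nucleoside importer named after its values were seen, read 23.4 to 26 CPM in C57BL/6 and 4.46 to 12.8 CPM in B6.SLE123 (-1.56 ± 0.27, edgeR adjusted p = 0.000598). Slc29a3 (ENT3), which returns nucleosides from the lysosome to the cytosol, was lower by less, at 126, 126, 134 and 126 CPM against 106, 99.7, 106 and 103 CPM, again with no overlap (-0.30 ± 0.04, edgeR adjusted p = 9.64e-05). The riboflavin carrier Slc52a2 rose from 23.6 to 25.1 CPM in C57BL/6 to 27.3 to 31.7 CPM in B6.SLE123 (0.28 ± 0.06, edgeR adjusted p = 0.00184). Slc46a3, a lysosomal carrier, was at 443 ± 22 and 505 ± 25.9 CPM (SD, n = 4, 0.19 ± 0.05 SE, edgeR adjusted p = 0.00964).

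The metal carriers kept here, which leave out Slc40a1, Slc11a1 and Slc48a1, showed mostly small differences. Of 22 measured, 9 were lower and 4 higher in B6.SLE123. The 59.1% that passed lay near the 57.9% of all genes with a mean count of at least 50. The median log2 fold change was -0.12, and 1 carrier was more than 2-fold lower. That gene was Slc39a8 (ZIP8), an importer of zinc and manganese, at 11.6, 10.7, 14 and 11.7 CPM in C57BL/6 and 4.05, 3.09, 3.99 and 4.49 CPM in B6.SLE123. All B6.SLE123 mice were low (-1.63 ± 0.13 SE, edgeR adjusted p = 2.23e-06). Slc30a1, the zinc exporter of the plasma membrane, was lower too, at 39 to 51 and 29.1 to 38.5 CPM, where the strains nearly met (-0.49 ± 0.10, edgeR adjusted p = 0.00152). The magnesium carrier Slc41a2 was higher, at 6.42 to 8.33 and 8.62 to 12.7 CPM (0.43 ± 0.13, edgeR adjusted p = 0.016), a call that was lost without C57BL/6 replicate 4 (edgeR adjusted p = 0.0541). The iron importer Slc11a2 (DMT1) read 31.1 ± 1.65 and 28.7 ± 1.27 CPM (SD, n = 4, -0.12 ± 0.06 SE, edgeR adjusted p = 0.0923, and 0.0459 without C57BL/6 replicate 4).

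Mitochondrial carriers with an Slc25 symbol were balanced between directions. Of 38 measured, 9 were higher, 7 lower and 22 did not pass. The 42.1% that passed lay below the 57.9% of all genes with a mean count of at least 50. The summed level of the 38 was 2051 to 2091 CPM in C57BL/6 and 2068 to 2095 CPM in B6.SLE123, which overlapped. Slc25a13 (citrin; chr6:6041218-6217173), an aspartate/glutamate exchanger of the malate-aspartate shuttle, rose from 10.6, 11.4, 11.1 and 9.83 CPM to 21.5, 20.6, 17 and 17.2 CPM. No B6.SLE123 mouse was as low as any C57BL/6 mouse (0.83 ± 0.09 SE, edgeR adjusted p = 2.75e-05). Its paralog Slc25a12 (aralar), named after its values were seen, rose by less, from 41.1 ± 0.511 to 49.9 ± 1.37 CPM (SD, n = 4, 0.28 ± 0.04 SE, edgeR adjusted p = 0.000154), and the ratio of Slc25a13 to Slc25a12 counts was 0.243 to 0.280 in C57BL/6 and 0.328 to 0.439 in B6.SLE123. Slc25a29, a carrier of basic amino acids, was at 4.57 to 4.88 CPM in C57BL/6 and 5.72 to 7.4 CPM in B6.SLE123 (0.47 ± 0.11, edgeR adjusted p = 0.00421).

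Against these rises stood Slc25a33, a pyrimidine nucleotide carrier (chr4:149744036-149774277), which read 9.54, 9.10, 8.63 and 10.3 CPM in C57BL/6 and 2.63, 2.45, 3.26 and 3.07 CPM in B6.SLE123. It was the one carrier with an Slc25 symbol more than 2-fold apart, and its strains were well separated (log2 fold change -1.72 ± 0.12 SE, edgeR adjusted p = 9.34e-07). The iron carrier Slc25a37 (mitoferrin 1) read 109 ± 3.38 and 99.5 ± 8.78 CPM (SD, n = 4, -0.13 ± 0.06 SE, edgeR adjusted p = 0.0857, and 0.0196 without B6.SLE123 replicate 4). The ADP/ATP exchanger Slc25a5 read 306 to 319 and 324 to 365 CPM, which did not overlap and did not pass (0.12 ± 0.05, edgeR adjusted p = 0.0537).

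The SLC35 carriers, which bring nucleotide sugars into the Golgi apparatus and endoplasmic reticulum for glycosylation, held no difference of more than 2-fold. Of 19 measured, 7 were lower and 2 higher, and the log2 fold changes had a median of -0.07. The 47.4% that passed lay below the 57.9% of all genes with a mean count of at least 50. The family member Slc35f6 fell most, from 55.9 to 61.7 CPM in C57BL/6 to 34.3 to 36.7 CPM in B6.SLE123 (-0.72 ± 0.05 SE, edgeR adjusted p = 8.22e-07). Slc35a3, which carries UDP-N-acetylglucosamine, was at 68.6 to 73.9 and 75.9 to 84.2 CPM (0.16 ± 0.05, edgeR adjusted p = 0.0131), a call lost without B6.SLE123 replicate 2 (edgeR adjusted p = 0.0521).

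Of 9 organic ion and vesicular carriers, 4 were lower and 2 higher, and the log2 fold changes had a median of -0.04. The share that passed was 66.7%, against 57.9% of all genes with a mean count of at least 50. Slc22a17, a receptor for the iron-binding lipocalin 2, read 21.9, 20.2, 19.5 and 21.4 CPM in C57BL/6 and 5.57, 6.91, 8.14 and 7.79 CPM in B6.SLE123. It was the only one of the 9 more than 2-fold apart (-1.55 ± 0.11 SE, edgeR adjusted p = 1.04e-06). Slc22a15 and Slc22a18, of the organic cation carrier family, were higher. Slc22a15, whose promoter letters are printed above, was at 8.84 to 12.4 CPM in C57BL/6 and 13.6 to 16.6 CPM in B6.SLE123 (0.56 ± 0.11, edgeR adjusted p = 0.00136), and Slc22a18 at 2.31 to 2.68 and 3.50 to 4.17 CPM (0.64 ± 0.12, edgeR adjusted p = 0.00089).

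The plot of the largest changes sets 9 of the 10 largest falls beside the 10 largest rises. The falls spanned log2 fold changes of -4.54 to -1.73 and the rises 0.43 to 1.05.

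**Figure D4:**
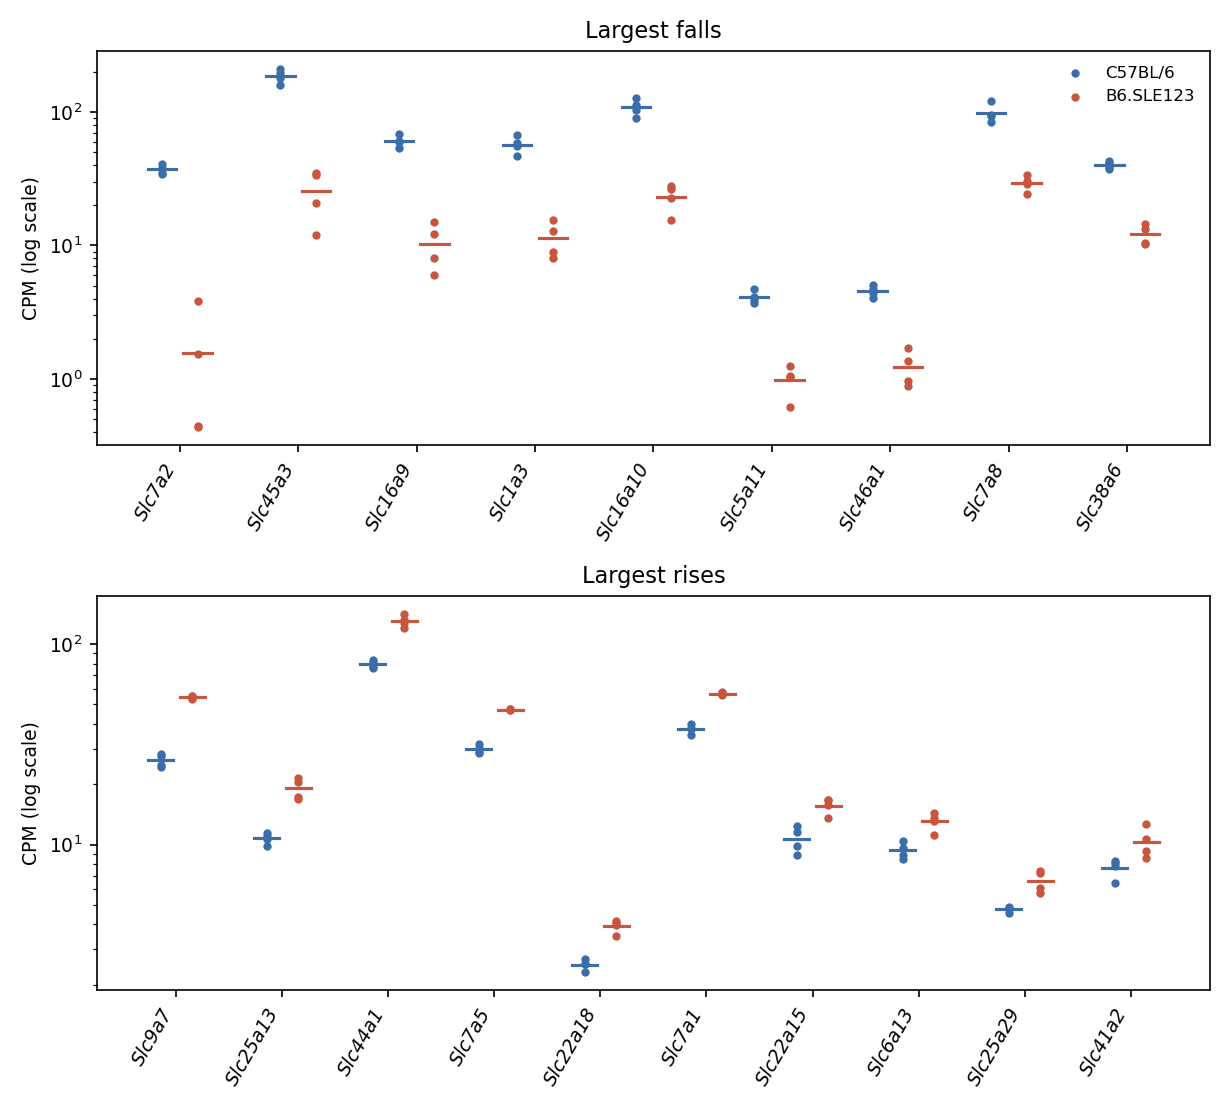
CPM on a log scale (vertical axes) of 9 of the 10 carriers with the largest falls (top) and the 10 with the largest rises (bottom) whose strains did not overlap, in 4 C57BL/6 mice (blue) and 4 B6.SLE123 mice (red). Points are mice and bars are means. The widest gap is that of Slc7a2, with 34.5 to 40.6 CPM in C57BL/6 and 0.433 to 3.86 CPM in B6.SLE123.

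Compared per exon length (RPKM), the 5 members with the highest mean of the 2 strains were the ADP/ATP exchanger Slc25a5, at 189 RPKM in C57BL/6 and 205 in B6.SLE123, Slc46a3, at 180 and 205, the mitochondrial sodium/calcium exchanger Slc8b1, at 81.3 and 102, the scaffold protein gene Slc9a3r1, at 73.8 and 81.2, and the oxoglutarate carrier Slc25a11, at 55.4 and 62.3. None of these 5 differed by more than 2-fold. Slc8b1 read 263 to 316 CPM in C57BL/6 and 315 to 423 CPM in B6.SLE123 (log2 fold change 0.33 ± 0.09 SE, edgeR adjusted p = 0.00979), Slc9a3r1 138 to 146 and 155 to 158 CPM (0.14 ± 0.04, edgeR adjusted p = 0.00706) and Slc25a11 113 to 127 and 126 to 140 CPM (0.17 ± 0.05, edgeR adjusted p = 0.0141, and 0.0541 without B6.SLE123 replicate 4). Slc9a3r1 is 1 of 4 members whose symbol is derived from a carrier but whose product is not one. With Slc9a3r2, Slc7a6os and Slc4a1ap it formed a set with 2 higher, 1 lower and a median of 0.13. The remaining member, Slc49a4, was lower (-0.40 ± 0.06, edgeR adjusted p = 0.000346).

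Carriers and related proteins whose symbols do not start with Slc and a number formed a second list of 38 genes. Of these, 19 were lower and 9 higher in B6.SLE123, and the median log2 fold change was -0.25. The share that passed was 73.7%, against 57.9% of all genes with a mean count of at least 50. More than 2-fold lower were 3 genes (7.89%), near the 6.12% of all genes with that mean count. The 3 were the mitochondrial uncoupling protein gene Ucp3 (7.25 ± 0.904 and 1.05 ± 0.365 CPM, SD, n = 4, -2.80 ± 0.22 SE, edgeR adjusted p = 2.20e-06), the organic anion carrier Slco2b1 (123 ± 21.3 and 18.2 ± 6.31 CPM, -2.77 ± 0.22, edgeR adjusted p = 2.35e-06) and the prostaglandin carrier Slco2a1 (8.67 ± 0.941 and 2.23 ± 0.698 CPM, -1.96 ± 0.19, edgeR adjusted p = 8.98e-06). The largest rise was that of Slco5a1, at 63.7 ± 9.07 and 93.7 ± 5.62 CPM (0.56 ± 0.09, edgeR adjusted p = 0.000332). The 3 falls and the rise were without overlap between strains.

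Exons of 61 members share bases with another annotated gene, among them Slc7a2, Slc45a3, Slc16a9, Slc15a3, Slc7a7, Slc37a2, Slc43a2, Slc25a33, Slc30a1 and Slc44a1, and since the strand setting of the counting is not given in the sources used here, their values are less certain. Of those 61, 27 were lower and 7 higher, with 11 more than 2-fold apart, and of the 133 that share none, 56 were lower and 30 higher, with 16 more than 2-fold apart. On chromosomes 1, 4 and 7, which carry the Sle intervals, 13 of 20 members passed and 3 were more than 2-fold apart. On the other chromosomes 107 of 174 passed (61.5%) and 24 were more than 2-fold apart (13.8%). Because 6 genes inside windows of chromosomes 1, 4 and 7 had been left out beforehand, these counts do not describe carriers inside those windows.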

How the data were processed

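mRNA libraries were made with a stranded kit from CD11c+ splenocytes of 8 mice, 4 per strain. Per the labels and the study's methods, the authors checked reads with FastQC, trimmed reads by cutadapt, used STAR for alignment (mm10) and deposited raw counts per gene from featureCounts. Versions and the strand setting are not given in the sources used here. The same table holds columns of the authors' DESeq2 comparison of the strains (mean level, fold changes with their error, test statistic and p-values), which were not used, and it lists protein-coding genes only.

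The strain of each library was taken from its title, since the genotype labels run on from sample to sample. The labels state only separate samples, so p-values measure the spread between these samples. Members and lists were chosen with earlier results of these data known. All 13786 genes were fitted without a filter in edgeR 4.0.16 (R 4.3.3) with TMM factors and a quasi-likelihood test, and p-values were Benjamini-Hochberg adjusted over all genes. SE is the absolute log2 fold change over the square root of F. CPM uses TMM-scaled library totals, and RPKM divides by merged exon length in GENCODE M21. No p-value is given for sums, medians or counts over genes. Totals of 25563070 to 37367094 counts set the precision of low genes.

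The genes named were the 10 that rose most and the 10 that fell most among members past the threshold whose strains did not overlap and whose mean count was at least 100 in the higher strain, the largest rise and fall of each role class with 5 or more members by the same criteria, 20 genes with known roles in leukocytes, the 5 highest per exon length and the genes at the count limit. 1 gene of this rule is not reported here. Members outside this rule whose levels are given are said to be named after their values were seen, except Slc49a4, given as the remaining member. Of the second list, Ucp3, Slco2b1, Slco2a1 and Slco5a1 were picked as its largest changes after their values were seen. Roles come from general knowledge of each family. Libraries of a strain differed beyond sampling noise, since chi-square per degree of freedom between replicates was 4.96 to 18.9. Alternatives were DESeq2 1.42.0, limma-voom 3.58.1, relative log expression factors, a count minimum, the replicate number as a block and leaving out each mouse.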

Additional observations from a re-analysis of the deposited data

Results flagged for a closer look

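In 4 carriers, 1 of the 4 C57BL/6 mice stood apart from the other 3, with a gap to its neighbour that took a larger part of the strain's range, on the log2 CPM scale, than Dixon's 95% limit for 4 values allows. Slc15a4 was 6.96 in replicate 4 (strain median 6.90), Slc29a3 was 7.07 in replicate 3 (6.98), Slc25a37 was 6.84 in replicate 3 (6.75), and Slc27a2 was 0.51 in replicate 4 (0.85). Of 102 sets of 4 values examined, 5.1 would be set apart by chance at this limit, against the 4 seen.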

How the results depend on the processing

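The count of 120 carriers past the threshold was 118 among genes whose 8 counts all reached 10, 122 with the replicate block, 120 with DESeq2, limma-voom or relative log expression factors, and 108 to 120 when a mouse was left out. Of the 120, 117 to 119 were shared under those settings other than leaving out a mouse, each in the same direction. Under every leave-one-out fit, 101 of the 120 were called, including all 27 that were more than 2-fold apart, whereas 19 lost the call in at least 1 fit and 17 others gained it. The median of -0.11 ran from -0.14 to -0.08.

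Small counts moved. Higher nucleotide sugar carriers, 2 in all, were 1 with relative log expression factors, with the count minimum and with DESeq2, and 1 to 2 without a mouse. The 1 higher sugar and inositol carrier (Slc37a3) was 0 with the count minimum, the replicate block and DESeq2, and 0 to 1 without a mouse. Higher genes that encode no carrier were 1 to 2. Slc16a3 ran from -0.042 to 0.15 and Slc27a2 from -0.31 to 0.49, neither past the threshold. In these moves the cause was not tested. Replicate numbers were not taken as pairs. Deviations of the mice with the same number correlated at 0.0238, 0.0707, -0.0288 and 0.1151. No values for unlike numbers are given beside them, so these correlations cannot settle whether mice were paired. The replicate block (122 called, 117 of them shared) is given for completeness. With 4 mice a strain, single values permit no exact permutation p below 0.0286.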
